A study of Homo sapiens with 12 samples.

Results

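Polysome-bound RNA was compared with the RNA of the lighter gradient pool in vehicle-treated HepG2 cells, a human liver cancer cell line that keeps much of the hepatocyte's gene expression. The 6 libraries compared, of 12 in the series, were all libraries labelled as control: 3 from the light pool and 3 from the polysome pool, numbered 1 to 3 in each pool. All cells were wild type and had DMSO, the vehicle of sorafenib, for the 12 h that the other 6 libraries had 10 µM sorafenib, a kinase inhibitor used against liver cancer. Both pools came from lysates made with cycloheximide, which holds ribosomes on the mRNA, so that agent is common to every group. The light pool joined the gradient peaks of low-molecular complexes, free ribosomal subunits and single ribosomes, and the polysome pool joined the polysome peaks. The cells are 1 established line, usually with a pair of dishes pooled for each lysate, and nothing in the labels says whether the 3 cultures were grown on separate days, so p-values measure the spread between these samples, which may be partly technical.

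Translating mRNAs carry several ribosomes and sink into the polysome peaks, whereas mRNAs held out of translation, mRNAs with a single ribosome and RNAs that are never translated stay near the top of the gradient. Cells hold back particular mRNA families through elements at the start of the transcript. The mRNAs of ribosomal proteins and elongation factors begin with a C and a run of pyrimidines, the terminal oligopyrimidine (TOP) tract, through which the mTOR pathway and the protein LARP1 repress them. Ferritin mRNAs carry an iron-responsive element (IRE), a hairpin that iron regulatory proteins bind to block initiation. Mitochondrial mRNAs are translated inside mitochondria by ribosomes of their own.

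The start sites of the mRNAs that the results turn on are shown first, from RefSeq promoters of assembly GRCh38.p14, matched by symbol. Each line gives 10 bases before the annotated start and 20 bases from it, and capitals mark a TOP tract, searched on the transcribed strand as a C at the start followed by at least 4 pyrimidines. The first 5 genes were strongly enriched in the light pool and hold a tract, a ribosomal protein, both elongation factors, the growth-related protein TPT1 and the non-coding snoRNA host SNHG5.
RPLP0 (chr12:120201092-120201121, minus strand): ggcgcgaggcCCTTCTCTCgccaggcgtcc
EEF1A1 (chr6:73521013-73521042, minus strand): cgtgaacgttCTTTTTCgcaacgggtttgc
EEF2 (chr19:3985444-3985473, minus strand): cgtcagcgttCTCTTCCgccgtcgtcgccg
TPT1 (chr13:45341164-45341193, minus strand): ctgagtcggcCTTTTCCgcccgctcccccc
SNHG5 (chr6:85678714-85678743, minus strand): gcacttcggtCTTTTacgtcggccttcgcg
The next lines show FAU, a ribosomal protein gene with a tract that did not pass the test, and 4 genes without a tract at these starts: RPS26, the ribosomal protein gene that was higher in polysomes, EEF1G, an elongation factor subunit that was higher in the light pool, and CENPW and ISG15, which were among the most polysome-enriched.
FAU (chr11:65122115-65122144, minus strand): tcgcttcttcCTCTTTCTCgactccatctt
RPS26 (chr12:56041908-56041937, plus strand): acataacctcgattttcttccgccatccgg
EEF1G (chr11:62573872-62573901, minus strand): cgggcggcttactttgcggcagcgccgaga
CENPW (chr6:126340105-126340134, plus strand): cgccgggcgcgttccgttggcggcggattc
ISG15 (chr1:1013487-1013516, plus strand): tgccgaagccggcggctgagaggcagcgaa
The last shows part of the ferritin light chain mRNA, with the loop of its IRE in capitals.
FTL (chr19:48965329-48965358, plus strand): gtctgtctcttgcttcaaCAGTGTttggac

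The light libraries held 7387602 to 11955977 counts and the polysome libraries 4769383 to 10584699. Replicate libraries correlated at 0.952 to 0.978 in the light pool and 0.959 to 0.968 in the polysome pool, and libraries of different pools at 0.84 to 0.903 (Pearson r of log2 CPM across genes, a description in which the points are genes). The hepatocyte markers were all 11 tested and summed to 5680 to 10680 CPM (here counts scaled to the library total, without TMM) in light and 8570 to 15590 in polysome libraries, although by the TMM fit 6 of the 11 were higher in the light pool and 2 in polysomes, with a median of -0.76. The 7 fibroblast markers summed to 1.17 to 2.98 CPM in light and 1.61 to 2.31 in polysome libraries, and the 5 endothelial ones to at most 0.708 and 1.47. The 6 leukocyte markers summed to 64.2 to 210 CPM in light and 458 to 661 in polysome libraries, mostly from LYZ. No marker of these lists was at 0 in all 6 libraries. Vehicle light library 1 stood apart in small structural RNAs, which are given with and without it below.

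Of 13918 genes with enough counts, 3252 (23.4%) were higher in the polysome pool and 3259 (23.4%) were higher in the light pool by edgeR's quasi-likelihood test with the culture as a block, at a Benjamini-Hochberg adjusted p under 0.05. At least 2-fold differences were passed by 1660 genes (11.9%) toward polysomes and 2101 (15.1%) toward the light pool. The median of all genes was -0.05 on the log2 scale, the middle 50% lay between -0.66 and 0.58, and the 5th and 95th percentiles were -1.99 and 1.41. With the TMM scaling used, light enrichment therefore reached further than polysome enrichment. Differences are relative, since no spike-in or unfractionated RNA was used here: TMM scaling takes the bulk of genes as unchanged. Scaled by library totals only, the median of all genes was 0.83 and the calls were 7851 and 969, with 89.0% of calls toward polysomes in place of 50.0%. At least 2-fold differences were then passed by 5834 genes toward polysomes and 719 toward the light pool, so which side reached further depends on the scaling. Upper quartile scaling gave 2471 and 4243 calls, or 36.8%. No gene was called in opposite directions by these scalings. Of the genes named below, TFRC, RPL35A, MT-ND6, ALB, ATF4, GPX4, MYC, OST4, HMGCS1, SREBF1, SNRNP200, DIAPH1, TFR2, SRSF5, SRSF6 and HNRNPH1 kept their light-side sign with library totals only but no longer passed the test, and SLC11A2, FAU and EIF3K passed it toward polysomes. In RNA from a whole culture, a shift in some cells and a smaller shift in all cells cannot be told apart.

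**Figure D1:**
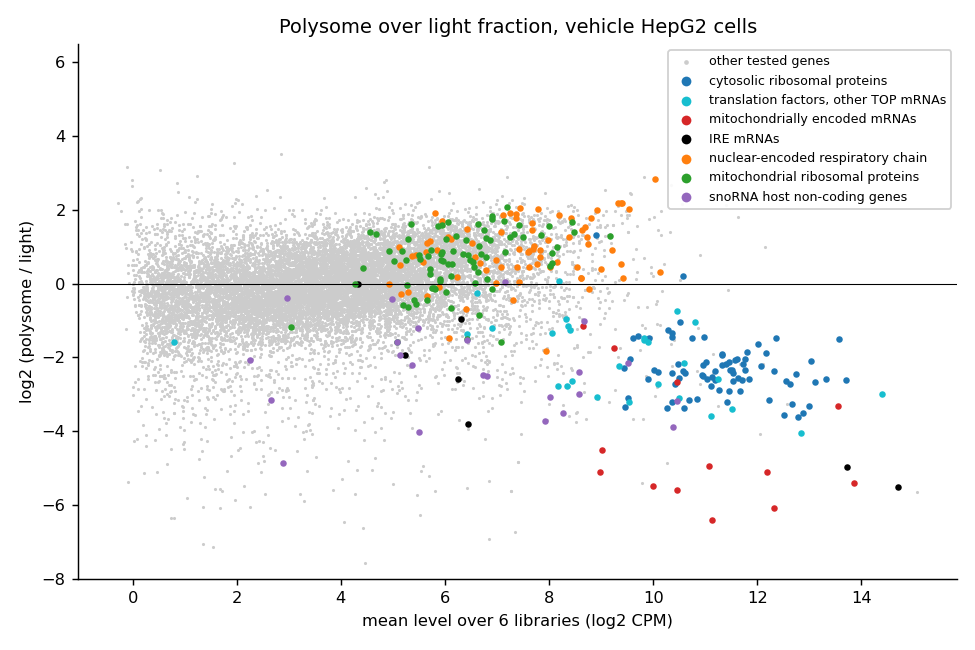
Each point is 1 of 13918 tested genes, with its mean level over the 6 libraries (log2 CPM) on the x axis and its log2 difference, polysome over light, on the y axis, coloured for 7 gene lists. The ribosomal protein, mitochondrially encoded and IRE mRNAs lie below 0, except RPS26, FAU and SLC11A2, and most nuclear-encoded respiratory chain points lie above 0.

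Ribosomal protein mRNAs took a larger share of the light pool than of the polysome pool, where they were still the largest class counted. The 79 ribosomal protein genes took 31.1, 28.5 and 35.2% of counts in the light libraries of cultures 1, 2 and 3, and 12.3, 11.4 and 10.2% in the polysome libraries. The 2 pools did not overlap, at 31.6% ± 3.35 (SD, n = 3) against 11.3% ± 1.05, with a two-sided exact permutation p of 0.1, the smallest that 3 against 3 allows. Paired by culture, the exact sign-flip test gave a p of 0.25, the smallest that 3 pairs allow. Per gene, 77 of 79 were higher in the light pool, all of them at least 2-fold, with a list median of -2.40 and culture medians of -2.26, -2.34 and -2.56. The 47 large subunit members lay between -3.62 and -1.04 and the 32 small subunit members had a median of -2.39, against -2.40 for the large subunit.

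RPLP1, an acidic stalk protein of the large subunit, was the member farthest toward the light pool. It was measured at 13030, 12260 and 13780 CPM in the light libraries and at 1378, 1016 and 843 in the polysome libraries. The pools were separated in each culture, and the difference was -3.62 ± 0.29 on the log2 scale (SE, n = 3 cultures, edgeR adjusted p 2.49e-10). RPS2, of the small subunit, went from 10380, 10040 and 12070 CPM in the light libraries to 865, 982 and 897 in polysomes (-3.56). RPL35A had the smallest difference among the 77, with 1772, 1925 and 2211 CPM in light and 1043, 1101 and 759 in polysome libraries (-1.04). RPS26, which lies near the mRNA exit channel, went the other way, from 243, 250 and 333 CPM in light to 717, 690 and 636 in polysome libraries. Its pools did not overlap, and it was 2.50-fold higher in polysomes (log2 1.32 ± 0.23, edgeR adjusted p 3.74e-05). FAU, which encodes the small subunit protein eS30 fused to a ubiquitin-like domain, had 1281, 1126 and 1922 CPM in light and 1517, 1638 and 1703 in polysome libraries. Those pools overlapped, and FAU did not pass the test (log2 0.20, edgeR adjusted p 0.508). Ribosomal protein genes have many processed pseudogenes, and the sources used here do not say how reads shared with them were counted, so single members are uncertain.

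**Figure D2:**
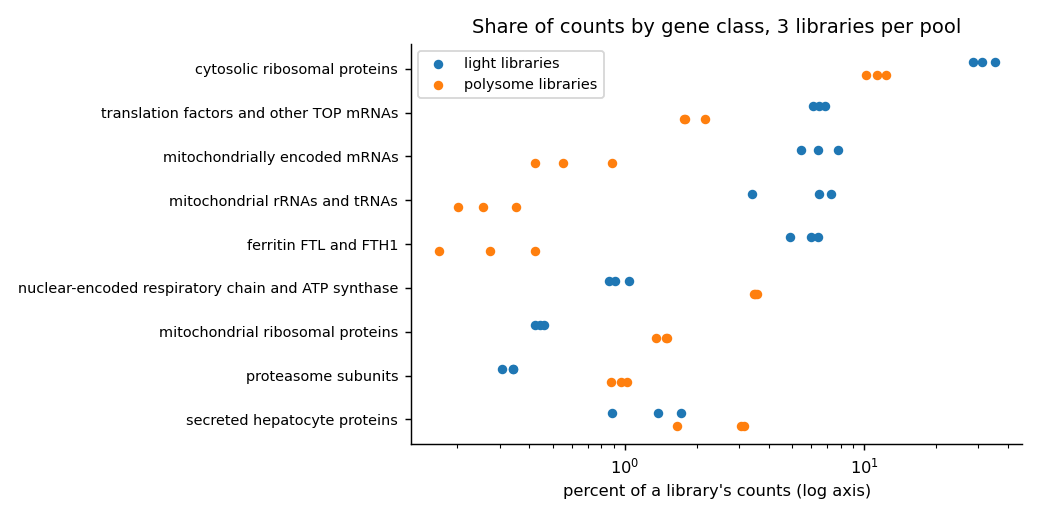
Points are the percent of each library's counts (log axis) that fell in 9 gene classes, with 3 light libraries in blue and 3 polysome libraries in orange. The pools are apart in every class shown but the secreted hepatocyte proteins, where a polysome library at 1.66% lies below a light library at 1.72%.

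The other mRNAs of the translation machinery with known TOP character followed the ribosomal proteins: 26 of 28 were higher in the light pool and none in the polysome pool, with a median of -1.86. They took 6.49% ± 0.361 (SD, n = 3) of light counts and 1.90% ± 0.219 of polysome counts. TPT1, the growth-related tumour protein, was at 15310, 13900 and 12050 CPM in light and 913, 875 and 698 in polysome libraries, a 16.6-fold difference (log2 -4.06 ± 0.28, edgeR adjusted p 2.81e-11). PABPC1, the poly(A)-binding protein, went from 3912, 4457 and 3921 CPM to 496, 311 and 254. The elongation factors EEF1A1, which delivers aminoacyl-tRNA, EEF2, which drives translocation, and EEF1G were higher in the light pool by 7.99-, 6.54- and 10.5-fold. EEF2 was measured at 1792, 2151 and 1719 CPM in light and 330, 314 and 228 in polysome libraries. In all 3 factors the pools were far apart in each culture.

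Initiation factors did not move as 1 group. Of the 13 subunits of eIF3, the scaffold that binds the small subunit, 8 were higher in the light pool and 1 in the polysome pool, with EIF3E at 1356, 1407 and 1204 CPM in light and 246, 113 and 103 in polysome libraries (-3.22). EIF3K, at 218, 244 and 404 CPM in light and 234, 351 and 297 in polysome libraries, overlapped between pools (0.06, edgeR adjusted p 0.849). The subgroup was drawn after its values were seen. It shares members with the TOP list above, EIF3K and EIF3C among them, so it is not a separate group of genes. Among 27 initiation factors outside the TOP list, 12 (44.4%) were higher in polysomes and 4 (14.8%) in the light pool, with a median of 0.39. Of all genes, 23.4% were called in each direction. EIF5A, which helps ribosomes past proline runs, rose from 190, 239 and 208 CPM in light to 573, 650 and 740 in polysome libraries, and EIF2B1, a subunit of the eIF2 exchange factor, from 21.1, 20.5 and 18.9 to 56.9, 78.0 and 77.3. EIF2A, an alternative initiator tRNA carrier, was 7.06-fold higher in the light pool, at 165, 180 and 140 against 31.8, 16.8 and 21.5 CPM.

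Aminoacyl-tRNA synthetases of the cytosol, which charge tRNAs, were higher in the light pool in 16 of 20 cases and in no case higher in polysomes, with a median of -0.83 that became 0.05 with library totals only. MARS, for methionine, had 61.1, 85.8 and 182 CPM in light and 15.03, 20.4 and 18.1 in polysome libraries (-2.48). QARS, for glutamine, had 479, 510 and 757 CPM in light and 125, 124 and 94.3 in polysome libraries (-2.33). Both genes kept their pools apart. Factors of ribosome biogenesis were higher in the light pool in 21 of 42 cases (50.0%) and in polysomes in 5 (11.9%). Their median was -0.60 (0.28 with library totals only), and 23.4% of all genes were called in each direction. NOP56, a core protein of box C/D snoRNPs whose gene hosts snoRNAs in its introns, stood far from the rest with 1901, 2498 and 2697 CPM in light and 110, 67.5 and 71.4 in polysome libraries (-4.85 ± 0.30, edgeR adjusted p 3.9e-12). NHP2, a small H/ACA snoRNP protein, was among the 5 that went the other way (1.45).

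TOP tracts were then counted at the starts of 9775 tested genes that had a RefSeq start, using the longest tract of genes with several starts. Of all 35116 starts, 4.07% hold a tract. It was present in 47 of 63 ribosomal protein genes with a start (74.6%), in 17 of 19 genes of the translation factor list (89.5%) and in 5 of 20 snoRNA host genes (25%). It was also present in 8 of 63 nuclear-encoded respiratory chain genes (12.7%), in 6 of 74 mitochondrial ribosomal protein genes (8.1%) and in 1 of 42 proteasome genes (2.4%). None of the 12 cytosolic tRNA synthetase genes matched to a start held one, and that list was mostly higher in the light pool. Counted the same way, per gene, 712 of 9358 protein-coding genes held one (7.6%). QARS and MARS were not among those 12, as their row symbols were not matched to RefSeq. Under the symbols QARS1 and MARS1, the start of QARS1 holds a tract of 5 bases and that of MARS1 holds none. Outside the ribosomal protein and translation factor lists, 648 protein-coding genes hold a tract. Of these, 175 (27.0%) were higher in the light pool and 122 (18.8%) in the polysome pool, with a median of -0.15. Of the 8628 protein-coding genes without one, 18.8% were higher in the light pool and 26.8% in polysomes, with a median of 0.04. The share that was higher in the light pool was 23.0% at 5 or 6 bases, 28.0% at 7 or 8, 28.2% at 9 to 11 and 39.7% at 12 or more, against 18.7% of genes that do not start with C. The medians of these 4 tract classes, of 304, 168, 103 and 73 genes, were -0.11, -0.21, -0.09 and -0.45. They did not fall steadily with length. Counts and medians here are over genes at annotated starts, which may differ from the starts used in HepG2 cells, and they carry no test. The letters were also not enough to sort single genes: FAU holds a tract of 9 bases and did not pass the test, and EEF1G holds none at this start and was higher in the light pool.

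**Figure D3:**
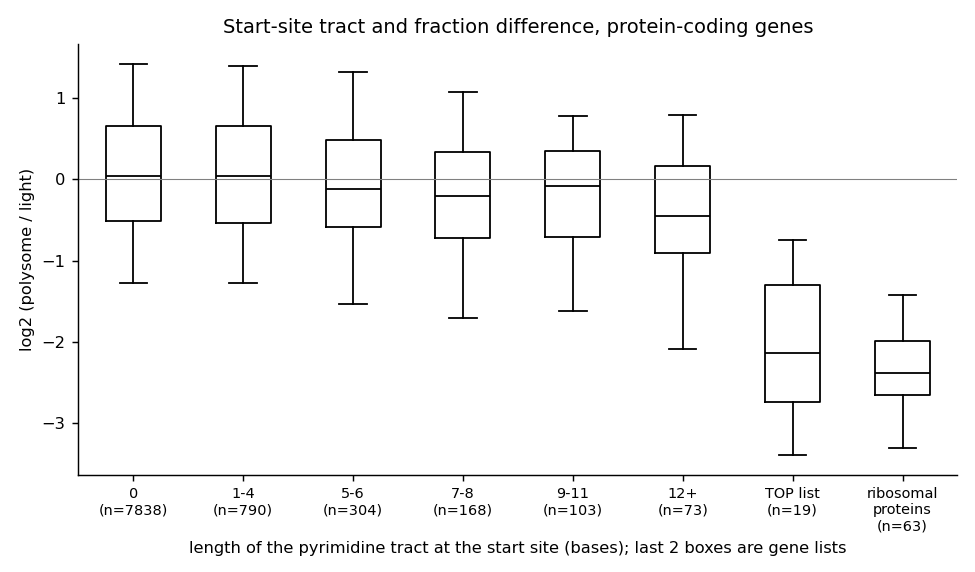
Boxes give the log2 difference, polysome over light, of protein-coding genes by the length of the pyrimidine tract that begins with C at the annotated start, with the 2 gene lists set apart at the right (line, median; box, middle 50%; whiskers, 5th to 95th percentile). The median is 0.04 without a tract, -0.11 at 5 or 6 bases, -0.21 at 7 or 8, -0.09 at 9 to 11 and -0.45 at 12 or more. The medians of both lists lie below those of all 6 tract classes.

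Ferritin mRNAs were among the RNAs most depleted from polysomes. FTL, the ferritin light chain, was at 60160, 54200 and 42960 CPM in the light libraries and 1786, 1258 and 672 in the polysome libraries. The pools did not overlap, and the difference was 45.2-fold (log2 -5.50 ± 0.34, edgeR adjusted p 4.36e-12). FTH1, the heavy chain, was at 29410, 24990 and 24080 CPM in light and 1325, 861 and 510 in polysome libraries, 31.2-fold higher in the light pool. Together they took 5.77% ± 0.771 (SD, n = 3) of light counts and 0.287% ± 0.127 of polysome counts. FTLP3, a processed pseudogene whose sequence resembles FTL, had the same direction (259, 296 and 130 against 3.29, 0.971 and 1.11 CPM), and its reads cannot be told apart from reads of FTL here.

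Other mRNAs with an IRE near the transcript start followed, with smaller differences. SLC40A1, the iron exporter ferroportin, was at 147, 115 and 224 CPM in light and 14.6, 6.15 and 14.7 in polysome libraries (-3.80). EPAS1, the hypoxia factor HIF-2 alpha, was at 167, 118 and 109 against 27.0, 18.9 and 19.9 (-2.57). In both genes each light library was above each polysome library. TFRC, the transferrin receptor, whose IREs lie at the other end of the mRNA and act on its stability, differed less, with 115, 110 and 86.5 CPM in light and 67.7, 43.0 and 50.6 in polysome libraries (-0.96 ± 0.21, edgeR adjusted p 0.00058). SLC11A2, an iron importer with an IRE at the same end, had 18.4, 20.1 and 20.7 CPM in light and 18.2, 19.2 and 21.9 in polysome libraries, overlapping pools that did not pass the test (0.00, edgeR adjusted p 0.991). In all, 6 of the 7 IRE mRNAs were higher in the light pool and none in polysomes. The loop letters CAGTGN were found on the transcribed strand within 50 bases of the start in FTL, at base 39, and in 6.36% of all starts. They were not in this window of EPAS1, SLC40A1, TFRC or SLC11A2, which says nothing about IREs further along.

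Mitochondrially encoded RNAs were far higher in the light pool. All 13 mRNAs were higher there, with a median of -5.10, and so were 22 of 23 tested rRNAs and tRNAs, with a median of -4.06. The mRNAs took 6.57% ± 1.17 (SD, n = 3) of light counts and 0.620% ± 0.238 of polysome counts. MT-ND1, a complex I subunit, went from 4664, 5949 and 2665 CPM in light to 71.7, 40.5 and 39.9 in polysome libraries, an 85.4-fold difference (log2 -6.42 ± 0.33, edgeR adjusted p 1.92e-13). MT-RNR2, the large mitochondrial rRNA, was the most counted RNA of light libraries 1 and 2 and stood at 84190, 77020 and 42470 CPM in light against 920, 1819 and 1270 in polysome libraries (-5.66).

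The 13 mRNAs were not depleted alike. MT-CO1, a core subunit of complex IV, was at 28670, 25120 and 11620 CPM in light and 3209, 1307 and 2023 in polysome libraries (-3.31), whereas MT-CO2, of the same complex, was at 23740, 26700 and 36730 against 831, 660 and 565 (-5.40). MT-ND5, at 1088, 1209 and 564 against 289, 266 and 252 CPM, differed by -1.75, and MT-ND6, which is encoded on the opposite strand from the rest, by -1.14 (687, 438 and 537 against 280, 273 and 200). Pools stayed apart in all 4. The sources used here do not say whether strand was used in counting, so reads of MT-ND6 and of transcripts opposite it cannot be told apart.

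The nuclear-encoded partners of these proteins lay on the polysome side. Of 77 nuclear genes of the respiratory chain and ATP synthase, 51 (66.2%) were higher in polysomes, 33 of them at least 2-fold. In the light pool 3 (3.9%) were higher, and 23.4% of all genes were called in each direction. The list's median was 0.91, with culture medians of 0.90, 0.85 and 0.82. The 77 genes took 0.864, 0.914 and 1.04% of light counts and 3.51, 3.59 and 3.48% of polysome counts. By complex, 29 of 37 complex I genes, 3 of 4 of complex II, 3 of 9 of complex III, 8 of 11 of complex IV and 8 of 16 of ATP synthase were higher in polysomes. NDUFC2, an accessory subunit of complex I, had 193, 243 and 354 CPM in light and 1670, 2033 and 1834 in polysome libraries, a 7.21-fold difference (log2 2.85 ± 0.25, edgeR adjusted p 1.86e-09). The read-through row NDUFC2-KCTD14 overlaps it and gave nearly the same difference (2.90), so it is not separate evidence. ATP5MC3, which encodes subunit c of the ATP synthase rotor, went from 225, 271 and 229 to 1079, 1143 and 1090 CPM, and COX6C, a small complex IV subunit, from 285, 240 and 363 to 1076, 1450 and 1066. NDUFAB1, the acyl carrier protein, and COX7B were higher by 4.54- and 4.13-fold. The members that were higher in the light pool included ATP5F1A, the alpha subunit of ATP synthase, and UQCRC2, a core protein of complex III. ATP5F1A was at 363, 425 and 365 CPM in light and 139, 91.9 and 101 in polysome libraries (-1.81). UQCRC2 was at 108, 114 and 74.7 against 48.1, 29.9 and 29.5 (-1.47).

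Mitochondrial ribosomal proteins, also made in the cytosol, were also called toward polysomes more often than toward the light pool. Of 82, 52 (63.4%) were higher in polysomes and 9 (11.0%) in the light pool, against 23.4% of all genes in each direction. Their median was 0.77. Their share was 0.441% ± 0.0170 (SD, n = 3) of light counts and 1.45% ± 0.0811 of polysome counts. MRPS34 led with 60.0, 57.9 and 47.3 CPM in light and 214, 284 and 207 in polysome libraries (2.08), and CHCHD1 had 49.1, 47.0 and 59.5 against 204, 148 and 209 (1.84). PTCD3, a pentatricopeptide protein of the small subunit, and MRPL45 were the farthest toward the light pool, at -1.58 and -1.57. Both kinds of ribosome thus stood on opposite sides of the comparison: 77 of 79 cytosolic ribosomal protein genes toward the light pool and 52 of 82 mitochondrial ones toward polysomes.

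Among well-counted protein-coding genes, the largest polysome enrichments besides NDUFC2 and its read-through row belonged to genes of unlike function. ISG15, a ubiquitin-like protein induced by interferon, was at 7.08, 9.94 and 14.4 CPM in light and 71.7, 119 and 87.2 in polysome libraries, 9.01-fold higher (log2 3.17 ± 0.24, edgeR adjusted p 1.8e-10). CENPW, a histone-fold protein of the centromere, was at 26.6, 37.7 and 38.2 against 184, 289 and 299 CPM (2.90). ETFB, the beta subunit of the flavoprotein that feeds electrons from fatty acid oxidation to the respiratory chain, was at 265, 315 and 458 against 1475, 2994 and 2321 (2.69). PMVK, phosphomevalonate kinase of cholesterol synthesis, was at 19.7, 24.4 and 42.9 against 111, 243 and 160 (2.57). For all 4 the lowest polysome library was above the highest light library. The most counted genes differed by pool: the 10 most counted genes took 22.2 to 23.7% of light counts, led by MT-RNR2 or EEF1A1, and 4.83 to 6.54% of polysome counts, led by APOA2 or RPS27A.

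**Figure D4:**
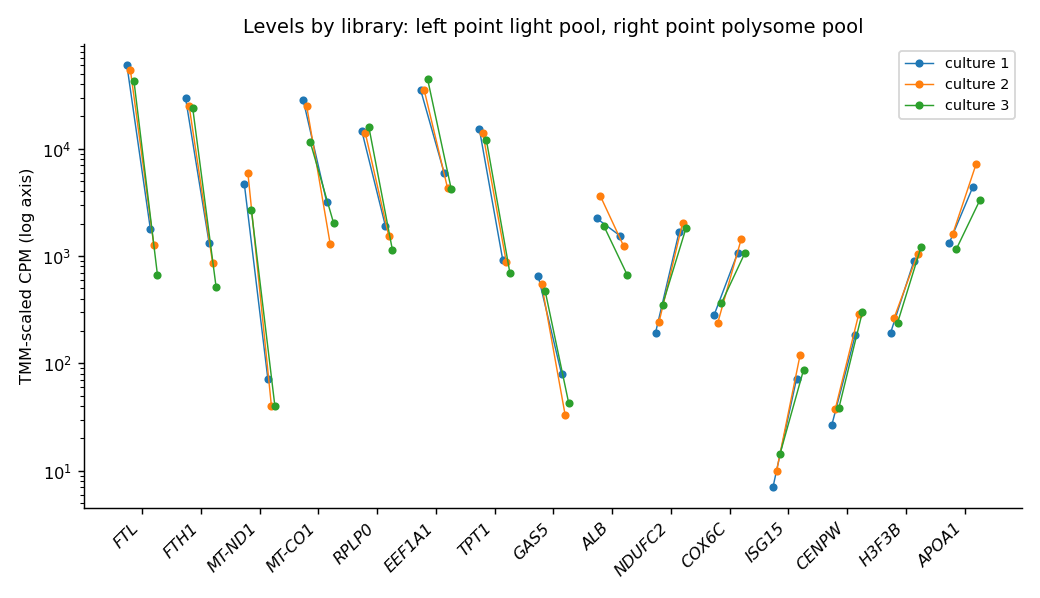
Levels of 15 genes (TMM-scaled CPM, log axis) in the 6 libraries, with a line joining the light (left) and polysome (right) library of each culture. FTL falls from 60160, 54200 and 42960 to 1786, 1258 and 672 CPM and NDUFC2 rises from 193, 243 and 354 to 1670, 2033 and 1834, and the 3 lines of each gene run in 1 direction.

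Long non-coding RNAs were called toward the light pool more often than toward polysomes, and over 50% of them passed the test in neither direction. Of 539 tested long non-coding RNAs, 36.0% were higher in the light pool and 7.79% in polysomes, against 20.1% and 25.8% of 11313 protein-coding genes. The non-coding hosts of snoRNAs, several of which are known to be degraded when ribosomes read them, were higher in the light pool in 20 of 23 cases, with a median of -2.40. GAS5 was at 659, 549 and 475 CPM in light and 79.7, 33.3 and 43.1 in polysome libraries (-3.51), SNHG5 at 3008, 2033 and 2449 against 220, 131 and 160 (-3.89) and SNHG19 at 570, 498 and 283 against 55.2, 34.0 and 18.5 (-3.72). The pools of these 3 were apart. SNHG22 was the farthest of the list at -4.87 (-5.80 without culture 2), from 12.0, 17.8 and 13.5 CPM in the light libraries to 0.280, 1.46 and 0.148 in the polysome libraries. NEAT1, the scaffold of nuclear paraspeckles, was at 715, 329 and 642 CPM in light and 76.9, 45.3 and 46.9 in polysome libraries (-3.29), and NORAD, a cytoplasmic RNA that binds Pumilio proteins, at 1246, 836 and 958 against 439, 256 and 239 (-1.74). TUG1, which RefSeq lists as protein-coding, so that it is not among the 539, was higher in polysomes, from 41.0, 33.7 and 34.9 to 72.8, 79.3 and 69.9 CPM (1.02). MALAT1, a nuclear speckle RNA, had 504, 607 and 572 CPM in light and 1338, 218 and 178 in polysome libraries, so that polysome library 1 alone was above the light pool, and it did not pass the test (-0.66 ± 0.39, edgeR adjusted p 0.174). Without culture 1 it passed, at -1.59.

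Small untranslated RNAs lay further toward the light pool, with a caution about 1 library. Of the 59 snoRNAs and scaRNAs with enough counts, out of 450 listed, 58 were higher in the light pool, with a median of -3.54. All 7 tested small structural RNAs, out of 24 listed, were higher there too. The count filter can be passed on the light libraries alone, so RNAs low in polysomes could be tested only through their light counts. These counts of members are therefore partly set by the filter and do not by themselves show a direction. RN7SK, which inhibits the elongation factor P-TEFb, was at 931, 26.5 and 50.8 CPM in light and 1.75, 5.99 and 3.62 in polysome libraries. RPPH1, the RNA of RNase P, was at 850, 37.0 and 34.4 against 1.40, 1.94 and 3.54, and RMRP, the RNA of RNase MRP, at 249, 17.2 and 9.79 against 0.489, 1.78 and 1.70. RN7SL1, the RNA of the signal recognition particle, was at 2552, 354 and 261 against 35.1, 167 and 38.4. Light library 1 was many times above the other light libraries for each of the 4, and the median difference of the structural RNA list was -8.46 in culture 1 but -2.11 and -3.003 in cultures 2 and 3. Without culture 1 the pools of these 4 RNAs still did not overlap, and the list's fitted median was -2.95 in place of -5.07. The differences of RN7SK, RPPH1, RMRP and RN7SL1 were -4.82, -5.62, -5.07 and -3.20 over all cultures and -3.03, -3.66, -2.87 and -1.93 without culture 1. They were larger again, down to -7.61, when culture 2 or 3 was left out. BCYRN1, a short brain-associated RNA that represses translation, was evenly measured at 103, 64.0 and 108 CPM in light and 2.03, 0.809 and 0.738 in polysome libraries (-6.28), although it resembles Alu repeats and its reads may be shared with them.

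**Figure D5:**
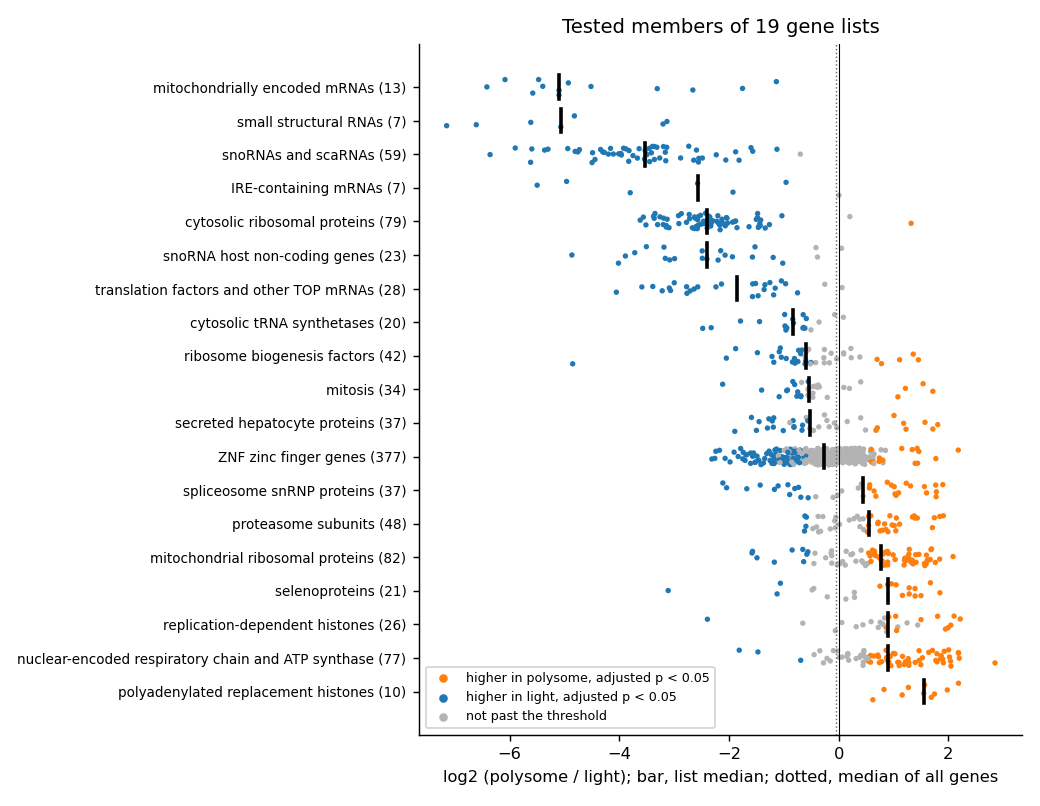
Each point is a tested member of 1 of 19 gene lists (number tested in brackets) at its log2 difference, polysome over light, coloured by the direction in which it passed the edgeR test, with a bar at the list's median. The mitochondrially encoded list has its median at -5.10 and the replacement histones at 1.56. With library totals only, the medians of the tRNA synthetase, biogenesis, mitosis, secreted protein and zinc finger lists are above 0.

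Histone mRNAs were on the polysome side. All 10 polyadenylated replacement histone genes were higher in polysomes, with a median of 1.56. H3F3B, which encodes histone H3.3, went from 192, 264 and 239 CPM in light to 906, 1035 and 1214 in polysome libraries (2.18 ± 0.23, edgeR adjusted p 3.45e-08), and H2AFZ, which encodes H2A.Z, from 136, 161 and 129 to 562, 458 and 676 (1.98). Replication-dependent histones, whose mRNAs end in a stem-loop in place of a poly(A) tail, were thinly counted, with 26 of 66 tested. Of these, 11 (42.3%) were higher in polysomes and 1 (3.8%) in the light pool, against 23.4% of all genes in each direction. Their median was 0.89. Their culture medians were -0.68, 1.65 and 1.36, so culture 1 ran opposite to the other two, and the fitted median was 1.90 without culture 1, 0.36 without culture 2 and 0.69 without culture 3. HIST1H2BD illustrates this, at 1.56, 0.331 and 0.185 CPM in light and 1.47, 6.63 and 2.66 in polysome libraries, a difference of 2.22 that was 4.11 without culture 1 and 1.14, not past the test, without culture 2. The exception, HIST2H2BD, was not matched to RefSeq, so whether it is a histone-coding gene or a pseudogene is not known here. It had 7.50, 3.98 and 4.99 CPM in light and 1.26, 1.29 and 0.664 in polysome libraries (-2.40).

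Secreted hepatocyte proteins divided. Of 37 tested mRNAs, 8 (21.6%) were higher in polysomes and 16 (43.2%) in the light pool, against 23.4% of all genes in each direction. The list's median was -0.53 (0.35 with library totals only). On the polysome side, APOA1, the main protein of HDL, was at 1323, 1607 and 1160 CPM in light and 4377, 7276 and 3309 in polysome libraries (1.81 ± 0.25, edgeR adjusted p 2.48e-06), and TTR, transthyretin, at 41.0, 38.0 and 24.9 against 159, 110 and 79.0 (1.72). On the light side, SERPINA1, alpha-1-antitrypsin, was at 4101, 4549 and 2060 CPM in light and 1396, 984 and 544 in polysome libraries (-1.90), and ALB, albumin, at 2241, 3628 and 1906 against 1539, 1228 and 663 (-1.21). Each of the 4 had its pools apart. As a class these mRNAs took 1.38, 1.72 and 0.886% of light counts and 3.08, 3.16 and 1.66% of polysome counts. The share was higher in the polysome library in each culture, with the pools overlapping (exact permutation p 0.2, exact sign-flip p paired by culture 0.25). The class share and the list's median differ in sign, and APOA1 and APOA2 were among the 10 most counted genes of each polysome library.

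Folding enzymes of the endoplasmic reticulum were higher in polysomes in 10 of 28 cases (35.7%) and in the light pool in 4 (14.3%). For the translocon, signal peptidase and signal recognition particle genes the counts were 13 (40.6%) and 5 (15.6%) of 32. Of all genes, 23.4% were called in each direction. FKBP2, a prolyl isomerase, went from 65.2, 47.0 and 43.8 CPM in light to 180, 223 and 171 in polysome libraries (1.89), MANF, a secreted stress factor, from 64.0, 70.7 and 43.2 to 193, 245 and 142 (1.70) and SDF2L1 by 1.71. SRP9 and SRP14, the partner proteins of the signal recognition particle, were higher in polysomes by 3.61- and 3.32-fold. OST4, a very small subunit of the oligosaccharyltransferase, was at 836, 647 and 436 CPM in light and 319, 216 and 204 in polysome libraries (-1.36). The pools of these 6 genes did not overlap.

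mRNAs with other known translational controls were mixed. Upstream open reading frames limit translation of ATF4 and DDIT3, 2 transcription factors of the integrated stress response. ATF4 was at 945, 925 and 702 CPM in light and 426, 342 and 335 in polysome libraries (-1.22 ± 0.22, edgeR adjusted p 8.47e-05) and DDIT3 at 47.0, 38.5 and 30.3 against 19.9, 12.0 and 9.37 (-1.53). Over 16 uORF mRNAs, 4 were higher in polysomes and 3 in the light pool. Those shares are near the 23.4% of all genes called in each direction, so the list did not stand apart from genes at large. The list's median was -0.09 (0.795 with library totals only, 0.01 with no filter on low counts). OAZ1, ornithine decarboxylase antizyme, whose ribosomes shift frame, was at 569, 750 and 628 CPM in light and 1706, 1750 and 1423 in polysome libraries (1.33), and SMS, spermine synthase, at 85.9, 93.1 and 138 against 285, 394 and 346 (1.71). AZIN1, the antizyme inhibitor, was 1.91-fold higher in polysomes, and 4 of the 8 polyamine genes were higher there and 1 in the light pool.

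Selenoprotein mRNAs read a stop codon as selenocysteine. Of 21, 12 (57.1%) were higher in polysomes and 3 (14.3%) in the light pool, against 23.4% of all genes in each direction. SELENOP, the plasma selenium carrier, was at 898, 814 and 295 CPM in light and 2978, 2140 and 611 in polysome libraries (1.39). Its polysome library 3 lay within the light pool's range, though each culture rose. SEPHS2, which makes selenophosphate, went from 87.6, 132 and 97.0 to 400, 422 and 308 (1.84). SELENOW was the exception in size, at 272, 176 and 194 CPM in light and 19.5, 25.4 and 29.1 in polysome libraries (-3.11 ± 0.25, edgeR adjusted p 2.72e-10), and GPX4, the lipid peroxidase that guards against ferroptosis, was 2.18-fold higher in the light pool (1607, 1454 and 1516 against 917, 721 and 517).

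Components of multi-protein machines were also counted separately. These subgroups, of the spliceosome, proteasome, chaperones and replication machinery, were drawn after the values were seen and are described without a test of the difference between them. In the spliceosome, 13 of 15 Sm and LSm ring proteins were higher in polysomes and none in the light pool, while 11 of 16 proteins of the U5, U4/U6 and SF3 particles were higher in the light pool and 2 in polysomes. SNRPD1 of the Sm ring went from 107, 128 and 130 CPM in light to 435, 462 and 458 in polysome libraries (1.90), and SF3A2 from 22.1, 20.4 and 30.1 to 4.41, 6.63 and 5.90 (-2.11). In the proteasome, 26 of 48 genes (54.2%) were higher in polysomes and 4 (8.3%) in the light pool, against 23.4% of all genes in each direction. Within it, 11 of 17 core particle genes and 7 of 20 regulatory particle genes were on the polysome side. PSMA7 and PSMB6 of the core were higher by 3.75- and 3.59-fold.

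The chaperonin TRiC, a folding chamber for actin and tubulin, had 5 of 8 subunits higher in the light pool and none in polysomes, and prefoldin, which delivers its clients, had 3 of 6 in polysomes and none in the light pool. CCT3 was at 237, 305 and 298 CPM in light and 117, 91.7 and 87.3 in polysome libraries, and PFDN6 at 28.4, 27.4 and 21.6 against 83.2, 91.9 and 80.0. Over the whole chaperone list of 30, 5 (16.7%) were higher in polysomes and 10 (33.3%) in the light pool, with a median of -0.31 (0.57 with library totals only). DNA replication genes had 10 of 34 (29.4%) in polysomes and 13 (38.2%) in the light pool, with a median of -0.46 (0.43 with library totals only). Of all genes, 23.4% were called in each direction. Of the 6 MCM helicase subunits, 5 were higher in the light pool and none in polysomes, and of the 4 GINS subunits, 3 were higher in polysomes and none in the light pool. MCM5 was at 26.0, 27.9 and 28.6 CPM in light and 10.6, 8.09 and 6.57 in polysome libraries, and GINS2 at 39.8, 48.0 and 45.1 against 128, 173 and 146. PCNA, the sliding clamp, was 2.40-fold higher in polysomes, and POLE, the leading-strand polymerase, 3.32-fold higher in the light pool.

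Mitotic genes were higher in the light pool in 14 of 34 cases (41.2%) and in polysomes in 4 (11.8%), against 23.4% of all genes in each direction. The list's median was -0.55 (0.34 with library totals only). The 4 were PTTG1, or securin, UBE2C, CKS2 and BIRC5, or survivin. PTTG1 was at 87.9, 92.8 and 159 CPM in light and 233, 480 and 412 in polysome libraries and BIRC5 at 163, 169 and 174 against 453, 548 and 472. KIF20A, a kinesin of cytokinesis, was the farthest toward the light pool, at 12.2, 13.5 and 7.95 CPM against 2.87, 1.29 and 3.25 (-2.12). Cytoskeletal genes split as well, with 6 of 30 in polysomes and 11 in the light pool and a median of -0.45 (0.43 with library totals only). The actin regulators PFN1, profilin, and CFL1, cofilin, were higher in polysomes by 3.53- and 3.01-fold, while ARPC1A, a subunit of the Arp2/3 complex, was at 590, 651 and 893 CPM in light and 123, 114 and 88.5 in polysome libraries (-2.70).

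Metabolic enzymes are given by pathway, beside the 23.4% of all genes called in each direction. The 2 members named for glycolysis, the TCA cycle and cholesterol synthesis are the farthest from each list's median. A wide span between them is therefore built into that choice. In glycolysis, 2 of 14 genes (14.3%) were higher in polysomes and 6 (42.9%) in the light pool (median -0.23, 0.65 with library totals only). GAPDH was at 1572, 1707 and 1434 CPM in light and 363, 228 and 254 in polysome libraries (-2.51 ± 0.25, edgeR adjusted p 1.06e-08), whereas TPI1, triose-phosphate isomerase, was at 281, 318 and 365 against 801, 1240 and 1321 (1.78). Of 19 genes of the TCA cycle and pyruvate dehydrogenase, 2 (10.5%) were higher in polysomes and 8 (42.1%) in the light pool (median -0.41, 0.47 with library totals only). CS, citrate synthase, was at 148, 154 and 88.0 CPM in light and 45.9, 25.2 and 23.4 in polysome libraries, and IDH2 at 22.8, 28.2 and 29.9 against 51.6, 72.5 and 79.2. Fatty acid synthesis had 1 of 13 (7.7%) in polysomes and 6 (46.2%) in the light pool (median -0.34, 0.53 with library totals only), the latter including SREBF1, its master transcription factor (-1.07). Cholesterol synthesis and uptake had 8 of 22 (36.4%) in polysomes, led by PMVK, and 3 (13.6%) in the light pool, including HMGCS1 (-1.01, lost without the culture block). The list's median was 0.10 (-0.09 with upper quartile scaling). Of 18 subunits of the V-ATPase, the proton pump of lysosomes, 7 (38.9%) were higher in polysomes and 3 (16.7%) in the light pool.

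Short-lived regulators and zinc finger genes had light-pool calls near the share of all genes, 23.4% in each direction, but polysome calls below it. Of 24 immediate early and labile factors, 1 (4.2%) was higher in polysomes and 7 (29.2%) in the light pool, with a median of -0.25 (0.63 with library totals only). MYC was at 54.3, 52.5 and 32.9 CPM in light and 30.0, 20.6 and 18.1 in polysome libraries (-1.02), and ZFP36, which binds AU-rich mRNAs, at 5.09, 4.20 and 6.28 against 1.33, 0.485 and 1.25 (-2.31). Of 377 tested ZNF genes, 86 (22.8%) were higher in the light pool, near the 23.4% of all genes, and 15 (4.0%) were higher in polysomes, with a median of -0.27 (0.61 with library totals only).

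The same contrast was available in the 6 libraries of sorafenib-treated cells, whose light libraries 1 and 2 held 2060384 and 511065 counts, fewer than any vehicle library. The polysome-over-light difference itself differed between treatments for 3943 of 14955 genes (26.4%), 2215 of them higher with sorafenib, by the interaction term of edgeR's test over all 12 libraries, and for 2522 of 15771 (16.0%) without the cultures of those libraries. That second fit keeps 1 sorafenib culture, which is assumed to vary like the vehicle cultures, so its counts, given in brackets, are no replicate check of the sorafenib arm. The IRE mRNAs had a median of -2.58 in vehicle and -0.33 in sorafenib cells, and all 7 had a higher difference with sorafenib (6 without those cultures). The difference was higher with sorafenib for 19 of 28 translation factor mRNAs and lower for none (11 and none without those cultures), but for 12 of 79 ribosomal protein mRNAs, with 2 lower (4 and 3). For nuclear-encoded respiratory chain genes the medians were 0.90 in vehicle and -0.65 in sorafenib cells, with 57 of 77 lower and 5 higher (58 and 4). The vehicle pattern of ISG15 and NDUFC2 was also not that of sorafenib cells, at 3.17 against -0.17 and 2.85 against 0.19.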

How the data were processed

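RNA of the light and polysome gradient pools of vehicle-treated HepG2 cells was measured in 6 libraries. The authors deposited whole-number read counts per gene, not normalized, for 57353 rows of the whole series. Reads had been placed on GRCh38.p12, as the submitters' processing notes list. Aligner, counter, annotation and strand setting: not given in the sources used here. While the series is described as ribosome profiling, the labels' protocols describe libraries made from the RNA of pooled fractions. No table column lacked a sample. Rows that overlap share reads here: 20 tested rows had counts identical to another row.

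Row symbols were matched to RefSeq (GRCh38.p14) for 37249 rows, 37 rows were mitochondrial and 20067 stayed without a match. Genes were kept with edgeR's filterByExpr, which left 13918 tested and 43435 not tested, the latter holding at most 0.421% of a library's counts. Counts were scaled by TMM in edgeR 4.0.16 (R 4.3.3), whose factors were 0.717 to 0.759 in light and 1.301 to 1.418 in polysome libraries. The quasi-likelihood test had the fraction and the culture as terms, with Benjamini-Hochberg adjustment over all tested genes and a threshold of 0.05. The biological coefficient of variation was 0.202. A positive log2 difference is relative enrichment in polysomes, and CPM printed for genes are TMM-scaled (sums over markers are not), with no correction for length, so levels are not compared between genes.

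Libraries were paired by the number in their titles, taken here to mean 1 lysate and gradient, which the labels do not state outright. Deviations of same-numbered libraries from their group means correlated at 0.181, -0.023 and 0.389, against -0.312 to 0.233 for libraries of different numbers, so the data do not bear out the pairing. Replicates differed by far more than counting noise, with a chi-square of 18.0 to 46.1 for each degree of freedom.

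The comparison, the gene lists and the genes were chosen with earlier results of these data known. Named genes were the 6 protein-coding genes with the largest difference in each direction at a mean log2 CPM of at least 5, the 4 smallest p-values and 2 farthest members of a list, and genes fixed by hand. Part of these is left out for length, and 1 list member is not reported here. Exact permutation tests were two-sided. Other scalings, filters, DESeq2 1.42.0 (Wald test), thinning to the smallest library and leaving out each culture were tried. The tests were tested on simulated data. A relation to protein length was planned and was not run, as no protein table was used here.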

Additional observations from a re-analysis of the deposited data

Results flagged for a closer look

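In 6 genes with the smallest adjusted p of each direction, the polysome-over-light difference of vehicle cells was not that of sorafenib cells by the interaction test (edgeR's quasi-likelihood test over 12 libraries with culture as a block, chosen among genes whose mean log2 CPM reached 5). DIAPH1, an actin-nucleating formin, differed by -1.35 in vehicle and 2.26 in sorafenib cells, a change of 3.61 (adjusted p 1.79e-06). COL18A1, a basement membrane collagen, changed by 3.59, and SNRNP200, the helicase of the U5 snRNP, by 3.19. In the other direction, MMAB, an enzyme of cobalamin metabolism, changed by -3.43 from 1.68 in vehicle to -1.75 in sorafenib cells. PET100, an assembly factor of complex IV, changed by -3.36, and ISG15 by -3.34 from 3.17 to -0.17. Sorafenib light libraries 1 and 2 were the shallowest of the series, and without their cultures the 6 changes were 3.75, 3.48, 3.10, -2.81, -3.23 and -3.43 in the order given, values with 1 sorafenib culture and so no replicate check of that arm.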

How the results depend on the processing

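The scaling moved the counts most. With library totals only, in place of TMM, 7851 genes were higher in the polysome pool and 969 in the light pool, 5834 and 719 of them at least 2-fold. The 969 were all among the 3259 of TMM. The medians of these lists then turned positive: tRNA synthetases 0.050, secreted proteins 0.349, uORF mRNAs 0.795, biogenesis factors 0.284, glycolysis 0.649, fatty acid synthesis 0.534, TCA cycle 0.471, mitosis 0.336, DNA replication 0.426, chaperones 0.567, immediate early factors 0.631, zinc finger genes 0.614, tubulins and actins 0.433, nuclear long non-coding RNAs 0.420, SR proteins and hnRNPs 0.612 and hepatocyte transcription factors 0.686. MALAT1 (0.22) and COL18A1 (0.11) turned too. Upper quartile scaling turned the cholesterol list to -0.087, the receptors to -0.052, SLC11A2 to -0.18 and EIF3K to -0.12. The uORF list was at 0.007 with no filter on low counts. SLC11A2 was at -0.004 when TMM left out mitochondrial and ribosomal protein genes, -0.022 at a mean log2 CPM of at least 1, -0.065 with protein-coding genes only and -0.042 to 0.039 leaving out each culture, and EIF3K at -0.008 with protein-coding genes only and -0.169 to 0.308 leaving out each culture.

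Without the replicate block, 2818 and 2671 genes were called, and 2742 and 2659 over all 12 libraries, with MALAT1 at 0.045 and 0.03. HMGCS1 did not pass in either, nor MT-ND6 over all 12. Leaving out each culture gave 2502 to 2882 genes higher in polysomes and 2438 to 3023 in the light pool, and DESeq2 gave 2917 and 2182 of 17130. No gene was called in opposite directions by any alternative. The interaction with sorafenib gave 3943 genes, 2522 without the cultures of both shallow libraries (1 sorafenib culture left, assumed to vary like the vehicle ones), and 2289 to 4509 leaving out each culture, lowest without sorafenib culture 1. No cause of a difference was tested, and this holds for the mechanisms given above as background too. Counting depth limits the histone and snoRNA lists, with 26 of 66 and 59 of 450 members tested. A member could pass the count filter on either pool alone, so the calls of these lists partly follow from the filter.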

Other observations

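Splicing regulators of the SR and hnRNP families, which bind pre-mRNA, had calls toward both pools, as all genes did. Of 31, 5 (16.1%) were higher in polysomes and 9 (29.0%) in the light pool, against 23.4% of all genes in each direction. The list's median was -0.27 (0.61 with library totals only). SRSF1 went from 131, 119 and 105 CPM in light to 237, 303 and 336 in polysome libraries (1.29) and SRSF9 rose by 1.55, while SRSF6 was at 269, 212 and 164 against 123, 66.3 and 76.1 (-1.30). SRSF5 (-1.30), SRSF6 and HNRNPH1 (-1.10) did not pass the edgeR test with library totals only. Of 22 transcription factors of the hepatocyte, 4 (18.2%) were higher in polysomes and 1 (4.5%) in the light pool. ONECUT2 led the 4, at 11.0, 8.95 and 6.65 CPM in light and 49.7, 22.3 and 10.6 in polysome libraries, pools that overlap (1.44). Of 26 cell surface receptors, 6 (23.1%) were higher in polysomes, including EPCAM (0.90) and the asialoglycoprotein receptor subunit ASGR1 (0.89), and 7 (26.9%) in the light pool, including TFR2, the hepatic transferrin receptor (-1.17, not past the test without culture 1 or culture 3, by DESeq2 or with library totals only). Both shares are near the 23.4% of all genes in each direction.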
